A study of Mus musculus with 18 samples.

Results

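A set of 10 genes of ion and water absorption in the mouse colon was chosen by name, and 9 of the 10 were found among the 15410 gene symbols of the series. They are Slc26a3, Slc26a2, Slc9a3, Aqp8, Car1, Scnn1a, Scnn1b, Scnn1g and Cftr. Car4 was not analysed here. Bulk RNA was sequenced from colon and spinal dorsal horn of wild-type mice in 3 groups, with 3 libraries per group and tissue and 18 libraries in all. The nivolumab group had bone cancer and received nivolumab, the cancer group had bone cancer and received IgG, and the sham group had a sham procedure and received IgG. Nivolumab is a therapeutic antibody raised against human PD-1, the T cell checkpoint receptor. The sources used here do not state the strain, sex or age of the mice, the tumour line, or the dose and time of treatment. The labels number the libraries 1 to 3 within each group and do not tie them to separate animals, so the p-values measure only the spread between these libraries, which may be technical.

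Absorptive cells of the colon surface take up sodium and chloride by pairing a sodium-proton exchanger with a chloride-bicarbonate exchanger on the luminal membrane. Carbonic anhydrase supplies the protons and bicarbonate for both exchangers. In the distal colon, sodium also enters through the epithelial sodium channel ENaC, which is assembled from alpha, beta and gamma subunits and is induced by the hormone aldosterone. Chloride leaves the crypts through CFTR, and water follows the salt that is moved.

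The 9 colon libraries held 20896854 to 30803957 counts each (median 26113440) over 14987 genes, of which 13445 passed the filter on low counts and were tested. All 9 genes passed it. The tissue label fitted the markers of intestinal epithelium: Epcam had 1258 to 2057 CPM (counts scaled to library size with TMM factors), Krt20 1124 to 3163 CPM and Cdx2 137 to 335 CPM over the 9 libraries. The biological coefficient of variation was 0.376, so that single genes varied widely between libraries of 1 group. Because whole tissue was sequenced, fewer cells of a type and less RNA per cell cannot be told apart.

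The genes were expressed at very different levels. Per kilobase of exon, Car1 was the most abundant, with a median of 2694 CPM per kb over the 9 colon libraries and a range of 269 to 8921. Aqp8 (median 199) and Slc9a3 (181) followed, then Slc26a3 (72.8), Slc26a2 (45.4), Scnn1a (30.9) and Cftr (16.7 CPM per kb). The beta and gamma subunits of ENaC lay far below the alpha subunit, at medians of 2.44 CPM per kb for Scnn1b and 0.290 for Scnn1g. Of the 8 neighbouring pairs in this order, Cftr and Scnn1b was the only pair whose ranges over the libraries did not overlap. Within single libraries the order was more constant, since Car1 was above Aqp8 in 8 of 9 libraries, Aqp8 above Slc9a3 in 6 of 9, and each other gene above the next in 8 or 9 of 9.

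**Figure D1:**
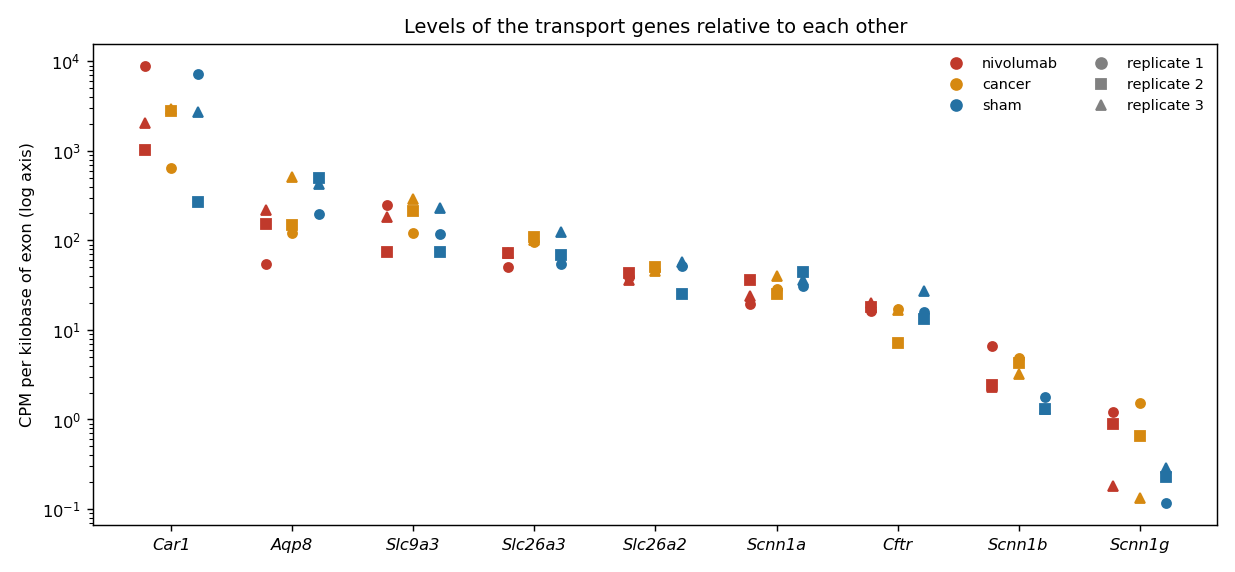
Level of each gene per kilobase of exon (CPM per kb, log axis) in the 9 colon libraries, with 1 point per library. Car1 stands at the top with a median of 2694 and Scnn1g at the bottom with 0.290, and the ranges of most neighbours overlap.

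The spread between libraries also differed by gene. The highest library exceeded the lowest by 33.1-fold for Car1, 13.3-fold for Scnn1g and 9.26-fold for Aqp8. It did so by 2.28-fold for Slc26a2, 2.29-fold for Scnn1a and 2.46-fold for Slc26a3. Set against all genes tested, 2.31% had a larger SD of log2 CPM over the libraries than Car1, and 53.0% had a larger one than Slc26a2.

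**Figure D2:**
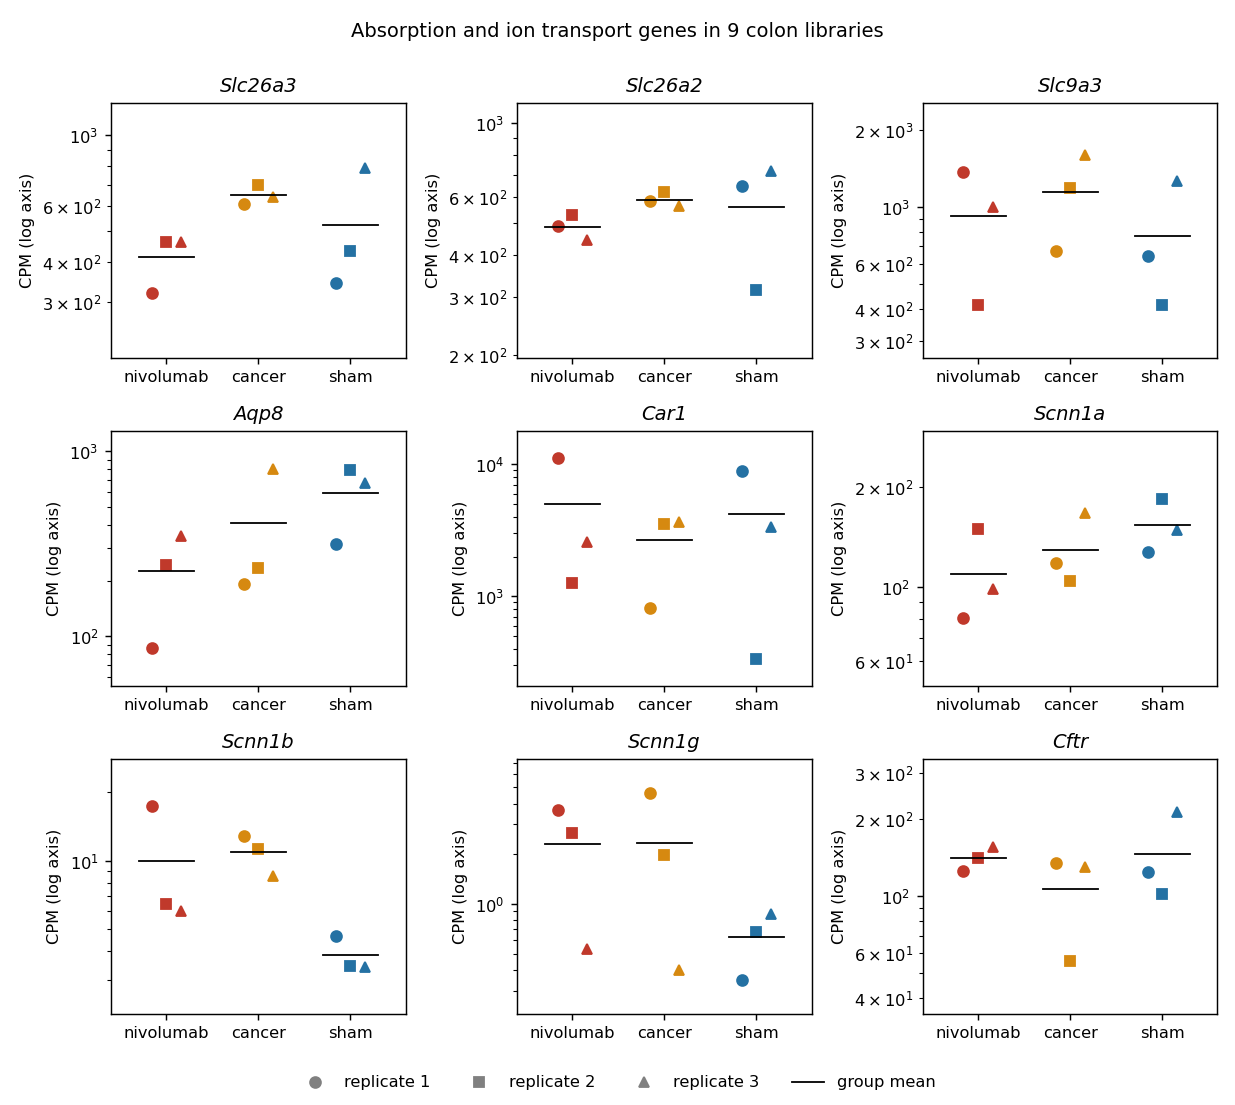
Level of each of the 9 genes (CPM, log axis) in every colon library of the nivolumab, cancer and sham groups, with a marker shape for each library number and a bar at the group mean. Scnn1b is higher in all nivolumab and cancer libraries (6.03 to 17.4 CPM) than in all sham libraries (3.40 to 4.65 CPM), while Car1 spreads widely within each group.

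The groups were compared in pairs with edgeR's quasi-likelihood test, and p-values were adjusted by Benjamini-Hochberg over all 13445 genes at a threshold of 0.05. By edgeR, 0 of the 9 genes passed in cancer against sham, nivolumab against cancer or nivolumab against sham, where 0% of all genes tested passed in each. At an unadjusted p under 0.05, the count was 1 of 9 for cancer against sham (10.9% of all genes), 0 of 9 for nivolumab against cancer (9.84%) and 1 of 9 for nivolumab against sham (6.45%). DESeq2 called 1, 0 and 0 of the 9 in those comparisons, next to 384 genes (2.86%), 186 genes (1.38%) and 144 genes (1.07%) of the 13434 to which it gave an adjusted p. The groups did not overlap for 1 of 9 genes in cancer against sham, 2 of 9 in nivolumab against cancer and 1 of 9 in nivolumab against sham, shares that lie near the 19.3%, 15.2% and 14.9% of all genes. A joint test of the 3 groups called 0 of 9 genes (0.0149% of all genes), with adjusted p from 0.425 to 0.867 over the 9 in edgeR. The cancer group serves in 2 of the comparisons and so does the sham group, so the comparisons are not independent.

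**Figure D3:**
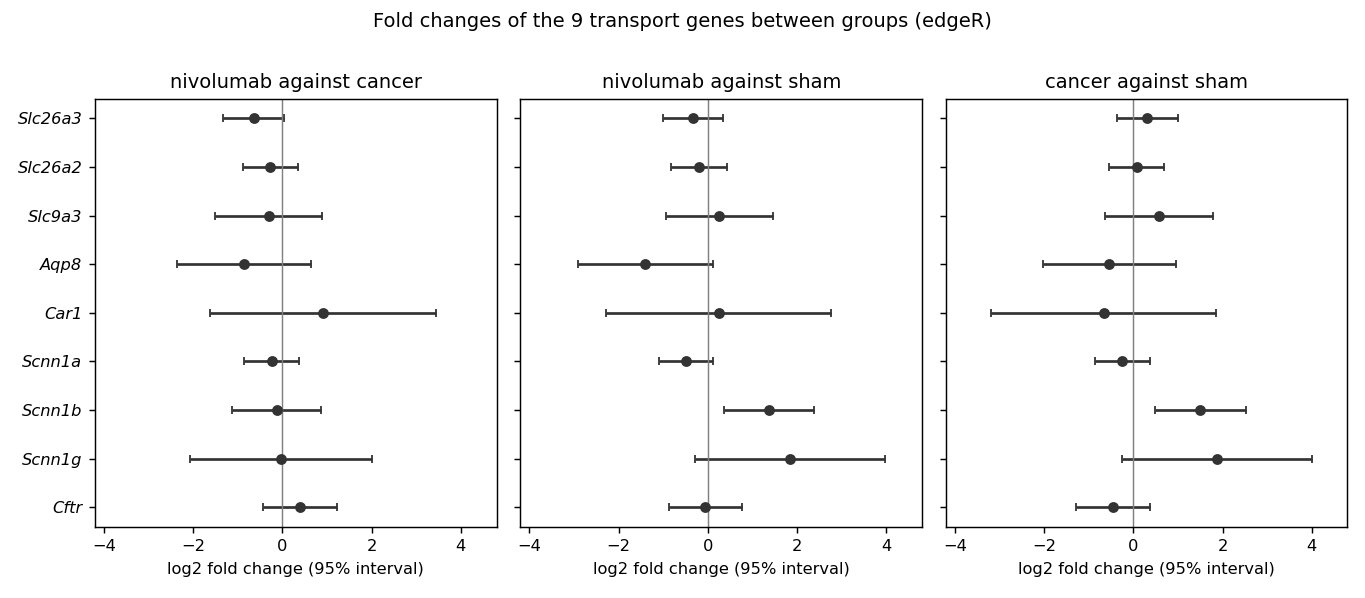
Log2 fold change of each gene with its 95% interval (edgeR) for nivolumab against cancer, nivolumab against sham and cancer against sham. The intervals for Scnn1b exclude 0 in both comparisons with sham (0.49 to 2.52 for cancer, 0.36 to 2.38 for nivolumab), and those of Car1 are the widest of the genes shown.

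Slc26a3 encodes the luminal chloride-bicarbonate exchanger whose loss causes congenital chloride diarrhoea in people. It had 320.1, 463 and 463 CPM in the nivolumab libraries, 608, 697 and 639.8 CPM in the cancer libraries, and 343, 433 and 789 CPM in the sham libraries. All nivolumab libraries lay below all cancer libraries, and the sham libraries spanned both groups. For nivolumab against cancer the log2 fold change was -0.64 (95% interval -1.32 to 0.04, adjusted p = 0.518 by edgeR), so the difference did not pass the test. It stayed between -0.76 and -0.56 over 17 alternative analyses.

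Slc26a2, a sulfate transporter of many tissues that is abundant in the colon, lay lower in the same comparison. Its levels were 489, 529 and 445 CPM with nivolumab, 583, 621 and 561 CPM with cancer, and 647, 315 and 718 CPM in sham. The nivolumab and cancer libraries again did not overlap, but the log2 fold change was only -0.27 (95% interval -0.89 to 0.35, adjusted p = 0.689 by edgeR). The sham libraries included both the lowest value and the highest. For markers of smooth muscle in this comparison, 10 of 10 had lower values in all nivolumab than in all cancer libraries (15.2% of all genes did not overlap), 8 of 10 had an unadjusted p under 0.05 (9.84% of all genes), and 0 passed adjustment by edgeR or DESeq2. Their summed level was 3011 to 4705 CPM with nivolumab, 6863 to 23328 CPM with cancer and 1418 to 21123 CPM in sham. None of these markers was at 0 in any library, and their part in the Slc26a3 and Slc26a2 values was not tested.

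Slc9a3 encodes the luminal sodium-proton exchanger NHE3, the main route of electroneutral sodium absorption. Its levels were 1364, 412 and 994 CPM with nivolumab, 672, 1179.5 and 1587 CPM with cancer, and 641, 413 and 1258 CPM in sham. Each group held both a low and a high library, and the groups overlapped in all 3 comparisons. The log2 fold changes were -0.31 for nivolumab against cancer, 0.26 for nivolumab against sham and 0.57 for cancer against sham (95% interval -0.63 to 1.78 for the last).

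Aqp8, a water channel of surface colonocytes, had 86.7, 243 and 346 CPM in nivolumab libraries, 192, 234 and 802 CPM in cancer libraries, and 314, 794 and 676 CPM in sham libraries. Its mean was 226 ± 131 CPM with nivolumab, 409 ± 341 CPM with cancer and 595 ± 250.1 CPM in sham (SD, n = 3 each). The highest nivolumab library lay above the lowest sham library, so these groups overlapped. Nivolumab against sham gave a log2 fold change of -1.40 (95% interval -2.91 to 0.11, adjusted p = 0.794 by edgeR). For cancer against sham it was -0.54 and for nivolumab against cancer -0.86, both with intervals that span 0. These values turned on cancer library 3, without which the log2 fold change was -1.48 for cancer against sham (unadjusted p = 0.0386, adjusted p = 0.344 by edgeR) and 0.084 for nivolumab against cancer, while without cancer library 1 that for cancer against sham was -0.18.

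Cftr, the chloride and bicarbonate channel that secretes fluid when cyclic AMP or cyclic GMP rises, had 125, 140.4 and 155 CPM with nivolumab, 135, 55.6 and 129.6 CPM with cancer, and 124, 102 and 213 CPM in sham. The second cancer library was the lowest and the third sham library the highest, and the groups overlapped throughout. The log2 fold changes were 0.39 for nivolumab against cancer, -0.06 for nivolumab against sham and -0.46 for cancer against sham (95% interval -1.28 to 0.37 for the last). Annotated genes overlap Cftr: the antisense Gm15592, and Gm15595, a processed pseudogene on the same strand. Without a stated strand setting the reads of Gm15592 cannot be told apart, and those of Gm15595 would share the strand of Cftr. Processed pseudogenes also overlap Slc26a3 (Gm9359) and Car1 (Gm16399) on the same strand.

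The ENaC subunits lie on mouse chromosomes 6 and 7. Scnn1a (GRCm38 chr6:125320659-125344943) encodes the alpha subunit, which forms the core of the channel. Scnn1g (chr7:121734479-121768475) and Scnn1b (chr7:121865038-121918514) encode the gamma and beta subunits, which raise the current, and are the subunits that aldosterone induces in rodent distal colon. They lie on the same strand, 96562 bases apart, with 0 protein-coding genes between them.

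The windows from 250 bases before to 50 bases after the RefSeq start are shown for Scnn1b and Scnn1g, the neighbouring subunit genes with the largest group differences, and for Slc26a3, whose nivolumab and cancer libraries did not overlap. They are the RefSeq sequences of GRCm38.p6, written 5′ to 3′, and capitals mark a motif found. For Scnn1b and Scnn1g this start is also the GENCODE gene start. For Slc26a3 it lies 47348 bases inside the GENCODE gene (chr12:31390871-31473917), at the start of another annotated transcript.
Scnn1b, chr7:121864788-121865087, + strand: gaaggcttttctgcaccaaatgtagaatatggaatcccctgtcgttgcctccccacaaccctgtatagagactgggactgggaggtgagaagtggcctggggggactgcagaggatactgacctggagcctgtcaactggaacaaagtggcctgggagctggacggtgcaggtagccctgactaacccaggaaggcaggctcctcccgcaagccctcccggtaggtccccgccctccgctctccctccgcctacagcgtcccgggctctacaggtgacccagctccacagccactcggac
Scnn1g, chr7:121734229-121734528, + strand: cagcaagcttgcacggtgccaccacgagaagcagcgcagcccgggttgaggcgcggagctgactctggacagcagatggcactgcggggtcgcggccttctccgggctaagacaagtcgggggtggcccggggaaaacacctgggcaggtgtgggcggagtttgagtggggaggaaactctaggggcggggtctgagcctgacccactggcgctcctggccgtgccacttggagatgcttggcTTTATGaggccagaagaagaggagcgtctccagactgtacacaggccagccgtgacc
Slc26a3, chr12:31437969-31438268, + strand: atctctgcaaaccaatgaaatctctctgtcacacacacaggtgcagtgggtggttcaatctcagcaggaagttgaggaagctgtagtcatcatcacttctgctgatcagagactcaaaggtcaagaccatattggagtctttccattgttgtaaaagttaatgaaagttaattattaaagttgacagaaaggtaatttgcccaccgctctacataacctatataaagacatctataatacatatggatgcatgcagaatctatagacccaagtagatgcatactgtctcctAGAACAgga
A total of 3 motifs were searched on both strands in the 6 of 9 genes with a window that could be read. AGAACA, an element of steroid hormone receptor sites, was in 1 of the 6 (Slc26a3), against 18.9% of all 32544 windows of the same length. TTTATG, a core of the CDX factors of intestinal epithelium, was in 1 of the 6 (Scnn1g), against 11.9% of all windows. CAAAGTCCA, bound by HNF4 factors, was in 0 of the 6 and in 0.479% of all windows. The Scnn1b window held none of the 3. The motifs do not overlap one another, and a match describes letters and not a bound site.

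Scnn1b gave the clearest separation of the groups. It had 17.4, 6.42 and 6.03 CPM in the nivolumab libraries, 12.8, 11.3 and 8.55 CPM in the cancer libraries, and 4.65, 3.45 and 3.40 CPM in the sham libraries, from 87 to 434 counts per library. All 6 libraries of mice with cancer, treated or not, lay above all 3 sham libraries, and the nivolumab and cancer libraries overlapped. For cancer against sham the level was 2.83-fold higher (log2 fold change 1.502, SE 0.45, 95% interval 0.49 to 2.52, unadjusted p = 0.00864, adjusted p = 0.310 by edgeR). For nivolumab against sham it was 2.59-fold higher (log2 fold change 1.37, SE 0.45, 95% interval 0.36 to 2.38, unadjusted p = 0.0134, adjusted p = 0.659 by edgeR). Neither difference passed adjustment over all genes, whereas DESeq2 gave adjusted p = 0.0412 for cancer and 0.154 for nivolumab. Over 17 alternative analyses the log2 fold change for cancer against sham was 1.31 to 1.66, with adjusted p from 0.0412 to 0.695. Nivolumab library 1 carried part of the other comparison: without it the log2 fold change was 0.64 for nivolumab against sham (adjusted p = 0.929 by edgeR) and -0.87 for nivolumab against cancer, against -0.13 with it.

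Scnn1b overlaps Cog7, a Golgi complex gene on the opposite strand, and without a stated strand setting the reads of the overlap cannot be told apart. The level, the fold change and the subunit ratios of Scnn1b hold only as far as its counts are free of Cog7 reads. Cog7 had 39.4, 40.4 and 42.6 CPM with nivolumab, 43.7, 35.7 and 32.8 CPM with cancer, and 42.3, 38.1 and 39.4 CPM in sham. Its log2 fold changes were 0.03 for nivolumab against sham and -0.09 for cancer against sham, against 1.37 and 1.502 for Scnn1b.

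Scnn1g was close to the limit of detection. It had 3.65, 2.65 and 0.536 CPM with nivolumab, 4.62, 1.96 and 0.398 CPM with cancer, and 0.348, 0.675 and 0.868 CPM in sham, from 8 to 107 counts per library. Libraries 1 and 2 of the nivolumab and cancer groups were above all sham libraries, and library 3 of each lay within the sham range. Its log2 fold change was 1.85 for nivolumab against sham (95% interval -0.28 to 3.98) and 1.88 for cancer against sham (95% interval -0.25 to 4.02, adjusted p = 0.510 by edgeR). Without cancer library 1 the value for cancer against sham was 0.92.

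Scnn1a, the alpha subunit, had 80.6, 149 and 98.8 CPM with nivolumab, 118, 104 and 167 CPM with cancer, and 128, 184 and 148 CPM in sham. The groups overlapped in every comparison, and the log2 fold change was -0.49 for nivolumab against sham (95% interval -1.09 to 0.12) and -0.24 for cancer against sham (95% interval -0.85 to 0.36). The balance of the subunits was compared per kilobase. Scnn1a exceeded Scnn1b by 2.95, 14.8 and 10.4 times in nivolumab libraries, 5.85, 5.89 and 12.5 times in cancer libraries, and 17.5, 34.0 and 27.8 times in sham libraries, so that the sham ratios were above all others. The ratio of Scnn1a to Scnn1g was 16.0, 40.7 and 133 with nivolumab, 18.5, 38.5 and 304 with cancer, and 265, 198 and 124 in sham, and overlapped between groups. These ratios were formed after the levels were seen and were not tested.

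Other gene groups were summed in the same libraries. The summed level of 11 genes of inflamed epithelium was 1992 to 9348 CPM with nivolumab, 6850 to 11725 CPM with cancer and 971 to 1969 CPM in sham, and their mean log2 CPM was 5.46 to 6.40 with nivolumab, 5.24 to 6.85 with cancer and 3.66 to 4.30 in sham. Of these 11 genes, 6 for nivolumab against sham and 7 for cancer against sham had higher values at an unadjusted p under 0.05 (6.45% and 10.9% of all genes in either direction). None of the 11 passed adjustment by edgeR, and DESeq2 called 6 in each comparison (1.07% and 2.86% of all genes). The summed level of 7 goblet cell markers was 3606 to 9017 CPM with nivolumab, 6020 to 27072 CPM with cancer and 22609 to 29311 CPM in sham, and their mean log2 CPM was 8.44 to 9.48 with nivolumab, 9.20 to 10.52 with cancer and 10.33 to 10.40 in sham. Clca1, which made up much of that sum in sham, had 955, 1029 and 552 CPM with nivolumab, 13258, 1776 and 1741 CPM with cancer, and 14104, 18793 and 17248 CPM in sham. Of the 7 goblet markers, 2 had positive log2 fold changes in each comparison with sham. At an unadjusted p under 0.05, 0 were higher and 3 lower for nivolumab against sham (6.45% of all genes). For cancer against sham, 1 was higher and 2 lower (10.9%). None of the 7 passed adjustment by edgeR, and DESeq2 called 2 and 1 (1.07% and 2.86% of all genes). Of 10 leukocyte markers, Jchain, a gene of antibody-secreting cells, had 224, 165 and 295 CPM with nivolumab, 256, 162 and 88.5 CPM with cancer, and 912, 1146 and 1030 CPM in sham. The other 9 summed to 108 to 232 CPM with nivolumab, 77.1 to 165 CPM with cancer and 111 to 164 CPM in sham, sums that overlapped between the groups. Of all 10, 1 was higher and 2 lower without overlap in nivolumab against sham (14.9% of all genes), and likewise in cancer against sham (19.3%). At an unadjusted p under 0.05, 1 was higher and 2 lower in each (6.45% and 10.9%). None of the 10 passed adjustment by edgeR, and DESeq2 called 2 and 3 (1.07% and 2.86% of all genes). Markers of crypt base and proliferation summed to 178 to 1006 CPM with nivolumab, 122 to 488 CPM with cancer and 733 to 986 CPM in sham. Of the 7 tested, 0 were higher and 5 lower without overlap in cancer against sham (19.3% of all genes). In nivolumab against sham 0 were without overlap (14.9%). At an unadjusted p under 0.05, 2 were lower for cancer and 0 for nivolumab (10.9% and 6.45%). None of the 7 passed adjustment by edgeR or DESeq2 in these comparisons. Of the markers in these 4 lists, Il6, Lgr5, Ascl2 and S100a8 were listed at 0 in at least 1 library. Epithelial markers summed to 21875 to 31443 CPM with nivolumab, 24921 to 32139 CPM with cancer and 18138 to 27768 CPM in sham. Of the 14 tested, 12 had positive and 2 negative log2 fold changes in each comparison with sham. In cancer against sham, 4 were higher and 0 lower without overlap (19.3% of all genes). In nivolumab against sham 0 were without overlap (14.9%). None of the 14 passed adjustment by edgeR or DESeq2 in these comparisons. With the epithelial marker score as a covariate, the log2 fold change of Scnn1b was 1.17 for nivolumab against sham and 1.31 for cancer against sham. The part of the other lists in the Scnn1b values was not tested.

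Car1 encodes a cytosolic carbonic anhydrase that is abundant in colonocytes. It had 11134, 1262 and 2560.1 CPM in nivolumab libraries, 810.0, 3512 and 3650.3 CPM in cancer libraries, and 8944, 336 and 3362 CPM in sham libraries. Each group spanned a wide range, of 8.82-fold within nivolumab, 4.51-fold within cancer and 26.6-fold within sham, and the groups overlapped. The log2 fold change was 0.91 for nivolumab against cancer (95% interval -1.63 to 3.44), 0.24 for nivolumab against sham and -0.67 for cancer against sham (95% interval -3.19 to 1.86). Its sign changed in each of the 3 comparisons when 1 library was left out.

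Genes that mark position along the colon varied in the same libraries. Osr2, expressed in the proximal colon, had 231, 0 and 53.3 CPM with nivolumab, 2.98, 29.9 and 71.4 CPM with cancer, and 167, 0.516 and 23.9 CPM in sham. Hoxb13, expressed in the distal colon, had 0.923, 241 and 42.2 CPM with nivolumab, 74.8, 15.5 and 5.12 CPM with cancer, and 92.2, 201 and 100.02 CPM in sham, so that it was lower in every cancer library than in every sham library. Hoxa13, another distal gene, had 19.9, 72.1 and 57.4 CPM with nivolumab, 73.8, 79.9 and 50.7 CPM with cancer, and 18.4, 47.1 and 60.4 CPM in sham. The mean log2 CPM of 6 distal genes was 0.29 to 2.98 with nivolumab, 0.77 to 1.95 with cancer and 1.43 to 3.83 in sham, and 0 of the 6 passed adjustment by edgeR or DESeq2 in any comparison (0 at an unadjusted p under 0.05). The libraries low in Osr2 (nivolumab 2, sham 2 and cancer 1) were also the lowest in Car1 of their groups. A position score was taken as the mean log2 CPM of 8 genes of the proximal colon or of the colon in general (among them Hoxb6, Hoxb7, Hoxb8, Osr2 and Isx), so that it is higher where these genes are higher. It was 6.27, 3.05 and 5.56 with nivolumab, 4.02, 4.85 and 5.69 with cancer, and 6.01, 3.31 and 5.39 in sham. The score therefore varied within each group, over a narrower range with cancer than with nivolumab or in sham.

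With group and score in 1 model, Car1 was higher by 1.17 on the log2 scale per unit of score (SE 0.24, unadjusted p = 0.00118, adjusted p = 0.252 by edgeR). Slc9a3 was higher by 0.52 per unit (SE 0.12, unadjusted p = 0.00277, adjusted p = 0.362 by edgeR). The score term called 0 of 9 genes by edgeR, against 0.0372% of all genes, with 2 of the 9 at an unadjusted p under 0.05 (5.41% of all genes). DESeq2 was not run for this term. For the other 7 genes the adjusted p was at least 0.986. The log2 fold change of Scnn1b with the score in the model was 1.30 for nivolumab against sham and 1.54 for cancer against sham, while that of Car1 for cancer against sham was 0.03. This score was chosen as a covariate after the data were seen, and where along the colon each piece was taken is not stated.

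**Figure D4:**
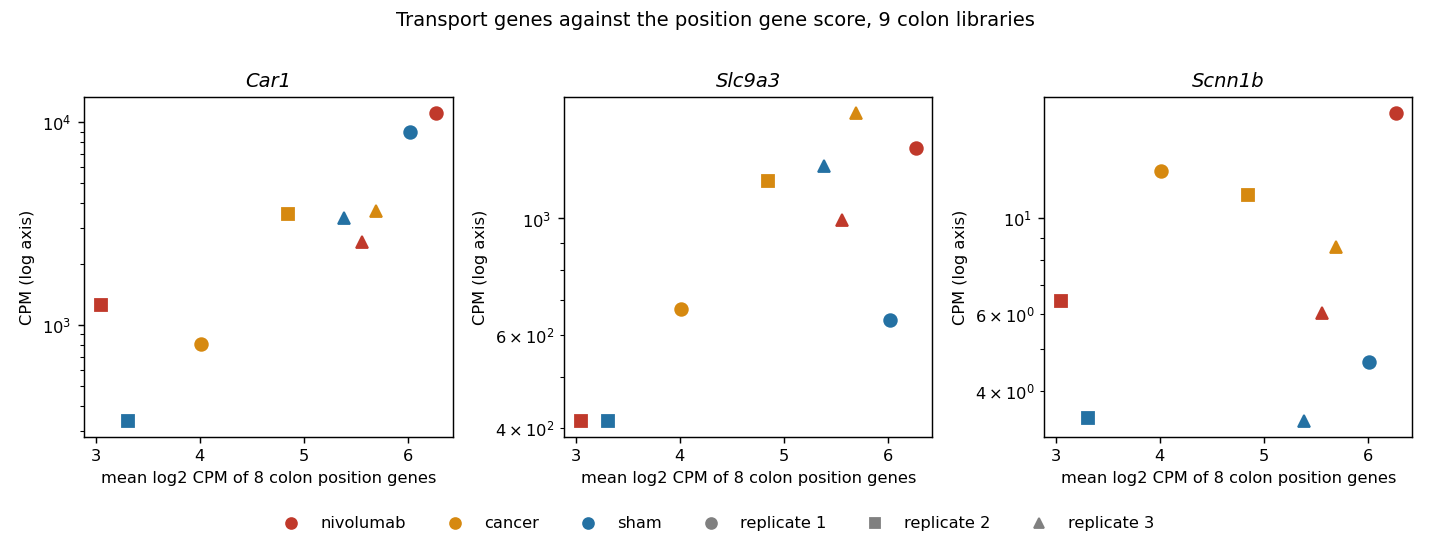
Level of Car1, Slc9a3 and Scnn1b (CPM, log axis) against the position score (mean log2 CPM of 8 genes of the proximal or general colon) in the 9 colon libraries, coloured by group. Libraries of low score have low Car1 in each group, down to 336 CPM at a score of 3.31 in sham, while the sham libraries are the lowest in Scnn1b at low and high scores alike.

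A wider set of 102 genes of colonic transport, in 11 lists by function, was set beside the 9 genes. Of these, 88 were in the colon table and 83 were tested. By edgeR 0 of 83 passed adjustment in any of the 3 comparisons, and DESeq2 called 4 for cancer against sham, 0 for nivolumab against cancer and 2 for nivolumab against sham (2.86%, 1.38% and 1.07% of all genes). At an unadjusted p under 0.05, 7 were higher and 9 lower for cancer against sham, 5 higher and 3 lower for nivolumab against cancer, and 4 higher and 6 lower for nivolumab against sham, where 10.9%, 9.84% and 6.45% of all genes had such a p. The median log2 fold changes were -0.08, 0.03 and -0.05 in those comparisons, next to 0.00, 0.03 and 0.03 over all genes. The medians of the 9 genes were 0.07, -0.24 and -0.06.

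Regulators of the sodium channel include its proteases, genes of the aldosterone response and genes that remove the channel. They had positive log2 fold changes in 9 of 13 tested genes for nivolumab against sham and in 10 of 13 for cancer against sham. Over all 13445 genes, 7277 and 6766 were positive in these comparisons. By edgeR 0 of the 13 passed adjustment. Of the 13, 2 were higher and 0 lower at an unadjusted p under 0.05 for nivolumab against sham (6.45% of all genes; median log2 fold change 0.32), and 4 were higher and 0 lower for cancer against sham (10.9%; median 0.39). The 4 were Hsd11b2, the proteases Furin and St14, and Nedd4l, a ubiquitin ligase that takes ENaC from the membrane, and the 2 were Hsd11b2 and Furin. Hsd11b2 was picked as the regulator with the smallest unadjusted p over the 3 comparisons (edgeR). The others are also named here after their values were seen. Hsd11b2, which inactivates glucocorticoids and so keeps the mineralocorticoid receptor free for aldosterone, had 597, 306 and 245 CPM with nivolumab, 382, 304 and 173 CPM with cancer, and 109.8, 80.9 and 131 CPM in sham. All nivolumab and cancer libraries were above all sham libraries, for a gene picked by its small p. Groups did not overlap for 14.9% of all genes in nivolumab against sham and 19.3% in cancer against sham. The log2 fold change of Hsd11b2 was 1.83 for nivolumab against sham (SE 0.40, adjusted p = 0.372 by edgeR and 0.00213 by DESeq2). It was 1.42 for cancer against sham (SE 0.39, adjusted p = 0.291 by edgeR). DESeq2 called 1 of the 13 regulators in each of these comparisons (1.07% and 2.86% of all genes).

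Guca2b, the gene of uroguanylin, a gut peptide that raises cyclic GMP and so opens CFTR, had 70.4, 29.8 and 26.9 CPM with nivolumab, 44.1, 83.6 and 28.1 CPM with cancer, and 20.9, 15.5 and 17.6 CPM in sham, with no overlap of either group with sham. Guca2b was picked by the smallest unadjusted p of its list, so this separation follows in part from the choice. Its log2 fold change was 1.23 for nivolumab against sham (adjusted p = 0.715 by edgeR). For cancer against sham it was 1.53 (adjusted p = 0.320 by edgeR and 0.0476 by DESeq2).

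On the secretory side, Slc12a2, the basolateral sodium-potassium-chloride cotransporter NKCC1 that loads chloride for secretion, had 205, 293 and 276 CPM with nivolumab, 170.0, 126 and 227 CPM with cancer, and 357, 344 and 398 CPM in sham. Both groups with cancer lay below sham in every library, though Slc12a2 was also picked by the smallest unadjusted p of its list. Its log2 fold change was -1.07 for cancer against sham (SE 0.23, adjusted p = 0.201 by edgeR and 0.00394 by DESeq2) and -0.51 for nivolumab against sham (SE 0.23, adjusted p = 0.777 by edgeR). Kcnq1, a basolateral potassium channel subunit, had 98.3, 57.7 and 83.4 CPM with nivolumab, 49.8, 17.8 and 61.9 CPM with cancer, and 102.9, 86.7 and 87.0 CPM in sham, with a log2 fold change of -1.09 for cancer against sham (adjusted p = 0.376 by edgeR).

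**Figure D5:**
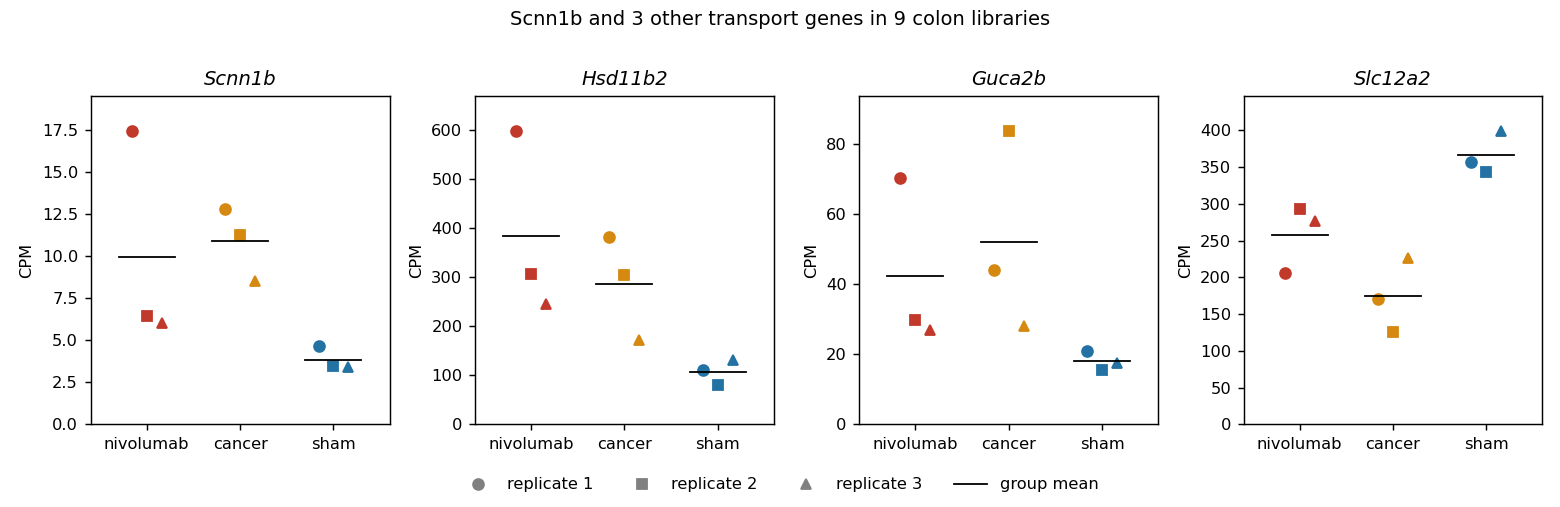
Level (CPM, linear axis from 0) of Scnn1b, Hsd11b2, Guca2b and Slc12a2 in each colon library of the nivolumab, cancer and sham groups, with a bar at the group mean. Scnn1b, Hsd11b2 and Guca2b are higher in every nivolumab and cancer library than in every sham library, and Slc12a2 is lower in every one. Hsd11b2, Guca2b and Slc12a2 were each picked by the smallest unadjusted p of their list (edgeR). Groups did not overlap for 14.9% of all genes in nivolumab against sham and 19.3% in cancer against sham.

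Among the other lists, Slc34a2, a sodium-phosphate cotransporter, had the largest log2 fold change of the transport genes named. It had 3.09, 6.05 and 8.48 CPM with nivolumab, 1.25, 0.914 and 7.75 CPM with cancer, and 76.3, 41.7 and 33.9 CPM in sham. The log2 fold change for cancer against sham was -3.94 (adjusted p = 0.201 by edgeR and 3.9e-05 by DESeq2). Slc16a3, a monocarboxylate transporter that exports lactate, had a log2 fold change of 1.24 in the same comparison (adjusted p = 0.322 by edgeR). For nivolumab against cancer, the bicarbonate cotransporter Slc4a7 had a log2 fold change of -0.57, the exchanger-binding scaffold Pdzd3 0.68, the sodium pump regulator Fxyd3 0.64 and the water channel Aqp11 0.92, with adjusted p of 0.431 to 0.505 by edgeR. Car2, the other abundant cytosolic carbonic anhydrase of the colon, had a log2 fold change of 0.30 for cancer against sham (adjusted p = 0.682 by edgeR).

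Genes with the pattern most like each of the 9 were taken by the smallest root mean square difference of centred log2 CPM over the 9 colon libraries. For Scnn1b they were Ffar4, a receptor for long-chain fatty acids (difference 0.25), and Camk2n1, an inhibitor of CaM kinase II (0.29). Ffar4 had 32.5, 22.6 and 14.9 CPM with nivolumab, 31.9, 34.9 and 21.3 CPM with cancer, and 12.7, 7.54 and 9.81 CPM in sham. Ffar4 was chosen for its likeness to Scnn1b, so its lack of overlap with sham follows largely from that choice. For Car1 they were Malrd1 (0.48) and Isx, an intestinal homeobox gene (0.66), the second of which is in the position score. Malrd1 had 33.2, 1.31 and 7.47 CPM with nivolumab, 1.29, 6.05 and 5.77 CPM with cancer, and 18.3, 0.992 and 5.67 CPM in sham. The nearest were St3gal3 and Inf2 for Slc26a3 (0.21 and 0.22), Slc30a4 and Atp11b for Slc26a2 (both 0.17), St3gal1 and Fa2h for Slc9a3 (both 0.36) and Hspa1b and Fzd9 for Aqp8 (both 0.51). They were Dhrs1 and Lmna for Scnn1a (0.14 and 0.15), Tcf23 and Ckmt2 for Scnn1g (0.69 and 0.72) and Aifm1 and Coa7 for Cftr (0.17 and 0.18). The values for Scnn1g rest on few counts.

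In the dorsal horn, a tissue without transporting epithelium of this kind, the 9 libraries held 21855085 to 29071908 counts. The same genes were low there: Slc26a2 had 7.63 to 12.9 CPM, Slc9a3 1.96 to 5.12, Scnn1a 1.17 to 3.35, Slc26a3 0.476 to 2.36, Cftr 0.649 to 2.43 and Car1 0 to 1.59 CPM. Scnn1b had 0 counts in 8 of 9 libraries and 2 counts in nivolumab library 1, and Aqp8 had at most 3 counts in any library. Of the 6 genes that passed the filter there, edgeR called 0 in cancer against sham (0.323% of all genes), 0 in nivolumab against cancer (17.2%) and 0 in nivolumab against sham (8.51%). At an unadjusted p under 0.05 the counts were 0, 1 and 0 of 6, against 13.1%, 34.2% and 26.1% of all genes. The 1 gene was Car1 for nivolumab against cancer, with levels of 0, 0.206 and 0 CPM with nivolumab, 0.908, 0.0761 and 1.59 CPM with cancer, and 0.0822, 0.237 and 0.720 CPM in sham (log2 fold change -3.44, unadjusted p = 0.0273 by edgeR). DESeq2 was not run for this tissue.

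Whether a comparison differed between colon and dorsal horn was tested with a tissue-by-group term over all 18 libraries. It called 0 of the 9 genes in cancer against sham (0.155% of all genes), 0 in nivolumab against cancer (0.127%) and 0 in nivolumab against sham (0.184%). The smallest p was that of Cftr in cancer against sham (colon minus dorsal horn -1.40 on the log2 scale, unadjusted p = 0.0305, adjusted p = 0.410 by edgeR), the 1 value of 27 with an unadjusted p under 0.05 (over all genes, 10.9% for cancer against sham, 16.4% for nivolumab against cancer and 12.7% for nivolumab against sham). For Scnn1b, Scnn1g and Aqp8 this term rests on dorsal horn libraries at or near 0 counts.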

How the data were processed

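RNA was extracted from colon and spinal dorsal horn, reverse-transcribed and size-selected, per the labels' protocols. The submitters' processing notes name HISAT2 and StringTie, FastQC 0.11.5, Trimmomatic and GRCm38. The sources used here do not state how reads were counted, or with which annotation and strand setting. The authors deposited whole-number counts per gene, 1 table per tissue, without normalisation.

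Counts of the 9 libraries of a tissue were fitted with edgeR 4.0.16 in R 4.3.3 (TMM scaling, low-count filter by group, robust quasi-likelihood F test, two-sided, group as the only term). DESeq2 1.42.0 was an alternative. Levels are TMM-scaled CPM, divided by exon length from GENCODE where given per kilobase. Log2 CPM used a prior count of 2. The fits were tested on simulated data. No libraries of a group agreed within counting noise (smallest chi-square per degree of freedom 71.0 in colon, 9.62 in dorsal horn). Depth and counting intervals cover counting error only.

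The genes and all lists were chosen with earlier results of these data known. All 9 genes are named, and of each other transport list up to 3 genes past the threshold or, where none passed, the gene with the smallest unadjusted p. Of 13 marker and position lists (105 genes tested), 0 genes passed the threshold in any colon comparison by edgeR, and 33 had an unadjusted p under 0.05 in at least 1. Markers are named only where a result turns on them. Not every gene of the position score is reported here. Alternatives were scaling, the filter, DESeq2, a replicate block, marker and position scores as covariates, only the groups compared, and each library left out.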

Additional observations from a re-analysis of the deposited data

How the results depend on the processing

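No count of the 9 genes past the threshold differed from 0 except by DESeq2, which called 1 (Scnn1b) for cancer against sham. For the transport partners, DESeq2 called 4 for cancer against sham and 2 for nivolumab against sham, against 0 in edgeR, and edgeR called 0 to 1 for cancer against sham when 1 library was left out. Over all genes, DESeq2 called 384 for cancer against sham, 186 for nivolumab against cancer and 144 for nivolumab against sham. EdgeR called 1 for cancer against sham with the replicate block, 1 with the epithelial covariate, and 7 for nivolumab against sham with only those groups in the fit. Leaving out 1 library gave 0 to 9 calls for cancer against sham (9 without cancer library 3), 0 to 2 for nivolumab against cancer and 0 to 3 for nivolumab against sham. Of 459 alternative values for the 9 genes, 434 kept their direction and side of the threshold and 24 turned in sign, none of them past the threshold (smallest adjusted p 0.548 by edgeR). With the replicate block the log2 fold changes of Car1 were 0.52 for cancer against sham and -0.18 for nivolumab against cancer, that of Scnn1g was 0.0641 for nivolumab against cancer and that of Cftr 0.0255 for nivolumab against sham. Deviations of same-numbered libraries from their group means had a median correlation of -0.0352 over 9 pairs, with a range of -0.44 to 0.46. With 3 libraries per group this cannot decide whether the numbers pair libraries. With the position covariate, Car1 was 0.029 for cancer against sham and Scnn1g 0.16 for nivolumab against cancer. With the epithelial covariate, Slc26a2 was -0.11 for cancer against sham and Car1 -0.44 for nivolumab against sham. Leaving out 1 library moved cancer against sham from -0.22 to 0.31 for Slc26a2 and -1.22 to 0.52 for Car1. It moved nivolumab against cancer from -0.78 to 0.013 for Slc9a3, -1.35 to 0.084 for Aqp8, -0.55 to 1.34 for Car1, -0.87 to 0.10 for Scnn1b and -0.61 to 0.91 for Scnn1g. It moved nivolumab against sham from -0.56 to 0.10 for Slc26a3, -0.53 to 0.0091 for Slc26a2, -0.19 to 0.80 for Slc9a3, -1.20 to 1.43 for Car1 and -0.31 to 0.31 for Cftr. The causes were not tested. With 3 libraries per group and the spread given above, log2 fold changes had 95% intervals as wide as -3.19 to 1.86 (Car1, cancer against sham), and Scnn1g rested on 8 to 107 counts per library.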
